A study of Mus musculus with 4 samples.

Results

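The genes described here are cyclins, cyclin-dependent kinases (CDKs), the proteins that hold CDKs back or switch them on, and the E2F and MYC transcription factors, 42 genes chosen by name. A gene was measured if the platform annotation gave its symbol, and no other symbol, to at least 1 probe set of the array. This held for 41 of the 42 genes, with 95 probe sets, out of 18193 genes so named in all. Ccnb1 had no such probe set and was not analysed here. All 41 genes passed the filter on dim signals, which asks that both arrays of at least 1 cell line lie above a signal of 17.3. For 40 of them both lines passed it, and E2f6 passed through L929 only.

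The study compared unstimulated L929 cells, an established mouse connective tissue fibroblast line that it treats as sensitive to necrosis, with unstimulated NIH3T3 cells, an established mouse embryo fibroblast line that it treats as sensitive to apoptosis. Expression was read from 2 arrays per line of the Affymetrix Mouse Genome 430 2.0 design, and the labels name no added allele or agent for either line. The 2 samples of a line are replicates by their labels, with no word on separate cultures, so a p-value here reflects the spread of these samples alone, which may be technical. With 1 line for each way of dying, a difference cannot be told apart from any other difference between the lines. Because RNA was taken from whole cultures, a smaller share of cells in a cycle phase and less RNA per cell cannot be told apart.

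Signals are MAS5 values in arbitrary units, scaled here to a common trimmed mean, and differences are log2 of L929 over NIH3T3 after an offset of 8.01 was added. As deposited, NIH3T3 replicate 2 was the brightest array, with a trimmed mean of 210.3 against 134.5 to 142.2 on the other arrays. Over the tested probe sets, which are not independent, the Pearson correlation was 0.982 for the L929 pair, 0.981 for the NIH3T3 pair and 0.835 to 0.843 for pairs that cross the lines. Of 10 fibroblast markers 9 lay above the filter level on both L929 arrays and 10 on both NIH3T3 arrays, and their summed signal was 37410 and 38880 in L929 and 45410 and 34520 in NIH3T3. By the rule for calls given below, 1 of the 10 was called higher in L929 and 4 lower, or 10% and 40%. These shares stand beside 17.3% and 17.6% of all genes tested. The higher one was Pdgfrb, at 1056 and 988.8 in L929 against 533.7 and 486.5 in NIH3T3. The lower ones were Pdgfra, Fn1, Thy1 and Dcn. Thy1 measured 18.0 and 30.0 in L929 against 2193 and 2253 in NIH3T3, and Dcn measured 19.0 and 2.78 against 1382 and 1572. Dcn entered the test through NIH3T3 alone. Of 6 epithelial, 6 haematopoietic and 5 endothelial markers, 2, 3 and 1 lay above the filter level on both L929 arrays and 2, 3 and 0 on both NIH3T3 arrays. On the 4 arrays the summed signals were 116.6 to 155.5 for the epithelial and 55.6 to 78.3 for the endothelial markers. For the haematopoietic markers they were 197.7 and 158 in L929 and 396.2 and 381.5 in NIH3T3. Of these, Cd14 measured 54.2 and 41.3 in L929 against 238 and 215.1 in NIH3T3. Cd68 measured 32.65 and 30.64 against 66.63 and 64.14, while Csf1r overlapped between the lines. The pan-leukocyte marker Ptprc was at 0.987 to 11.8 and the endothelial marker Pecam1 at 2.53 to 3.72 on the 4 arrays. The part of these marker levels in the results was not tested.

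Cells move through the division cycle as successive cyclins bind and activate CDKs. D-type cyclins with CDK4, then cyclin E with CDK2, phosphorylate the retinoblastoma family, which releases E2F factors to transcribe genes for DNA replication, and cyclin B with CDK1 drives entry into mitosis. INK4 and CIP/KIP inhibitors, the inhibitory kinases WEE1 and PKMYT1, and repressor E2Fs oppose these steps, while MYC promotes entry into the cycle and SKP2 marks the inhibitor p27 for degradation.

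Genes of this set that differed between the lines were mostly higher in L929. On the brightest probe set of each gene, the largest differences were in E2f6, a repressor E2F, at least 21.3-fold higher in L929, Cdk2, the kinase partner of cyclins E and A, 6.77-fold higher, and Ccnb2, a mitotic cyclin, 5.03-fold higher. The cyclin gene Ccnd1, the atypical repressor E2f8 and the pocket protein gene Rbl1 were also higher, and the inhibitor gene Cdkn1b was lower. A dimmer probe set of Mycn, lower in L929 at a log2 difference of -3.20, differed by more than Cdk2 did. It passed the filter through NIH3T3 alone, with 1 of 2 L929 arrays above the level. Of the 41 genes tested, 14 were called higher in L929 and 1 lower, or 34.1% and 2.44%, beside 17.3% and 17.6% of all 12676 genes tested. A call needed a limma adjusted p under 0.05, with Benjamini-Hochberg adjustment over all genes tested, and a fold above 1.5. The share called in either direction was 36.6%, near the 34.8% of all genes. The median log2 difference of the 41 genes was 0.28, against 0.01 for all genes tested.

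A further 9 genes had an adjusted p under 0.05 with a fold at or under 1.5, of which 3 leaned higher and 6 lower in L929. At any fold, therefore, 17 of 41 genes passed the adjusted p of limma as higher and 7 as lower, beside 23.5% and 23.4% of all genes. The arrays of the lines did not overlap for 34 of the 41 genes, with L929 above for 25 and NIH3T3 above for 9, and this held for 73.8% of all genes tested, so non-overlap alone says little here.

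Without scaling of the arrays, 5 of the 41 genes were called higher and 1 lower, the 5 being Ccnd1, Cdk2, Ccnb2, E2f6 and E2f8 and the lower one Cdk4. In that setting 794 of all 12583 genes tested were called higher and 1745 lower. That setting moved the median difference of all genes from 0.01 to -0.26, because the bright NIH3T3 array was left unscaled, and 31.3% of all called genes were then higher in L929, against 49.5% with scaling. The median difference of the 41 genes was then -0.0038, above the -0.26 of all genes. Those 5 genes kept their call under every alternative run. E2f6 entered the test through L929 alone, so its kept call adds no support. Among the other 9 higher genes, Cdkn2d, Cdkn3, Ccnh, Cdk8, Rbl1, E2f2 and E2f7 lost it only without scaling, and Cdc25b and Myc lost it also under the settings named beside them.

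**Figure D1:**
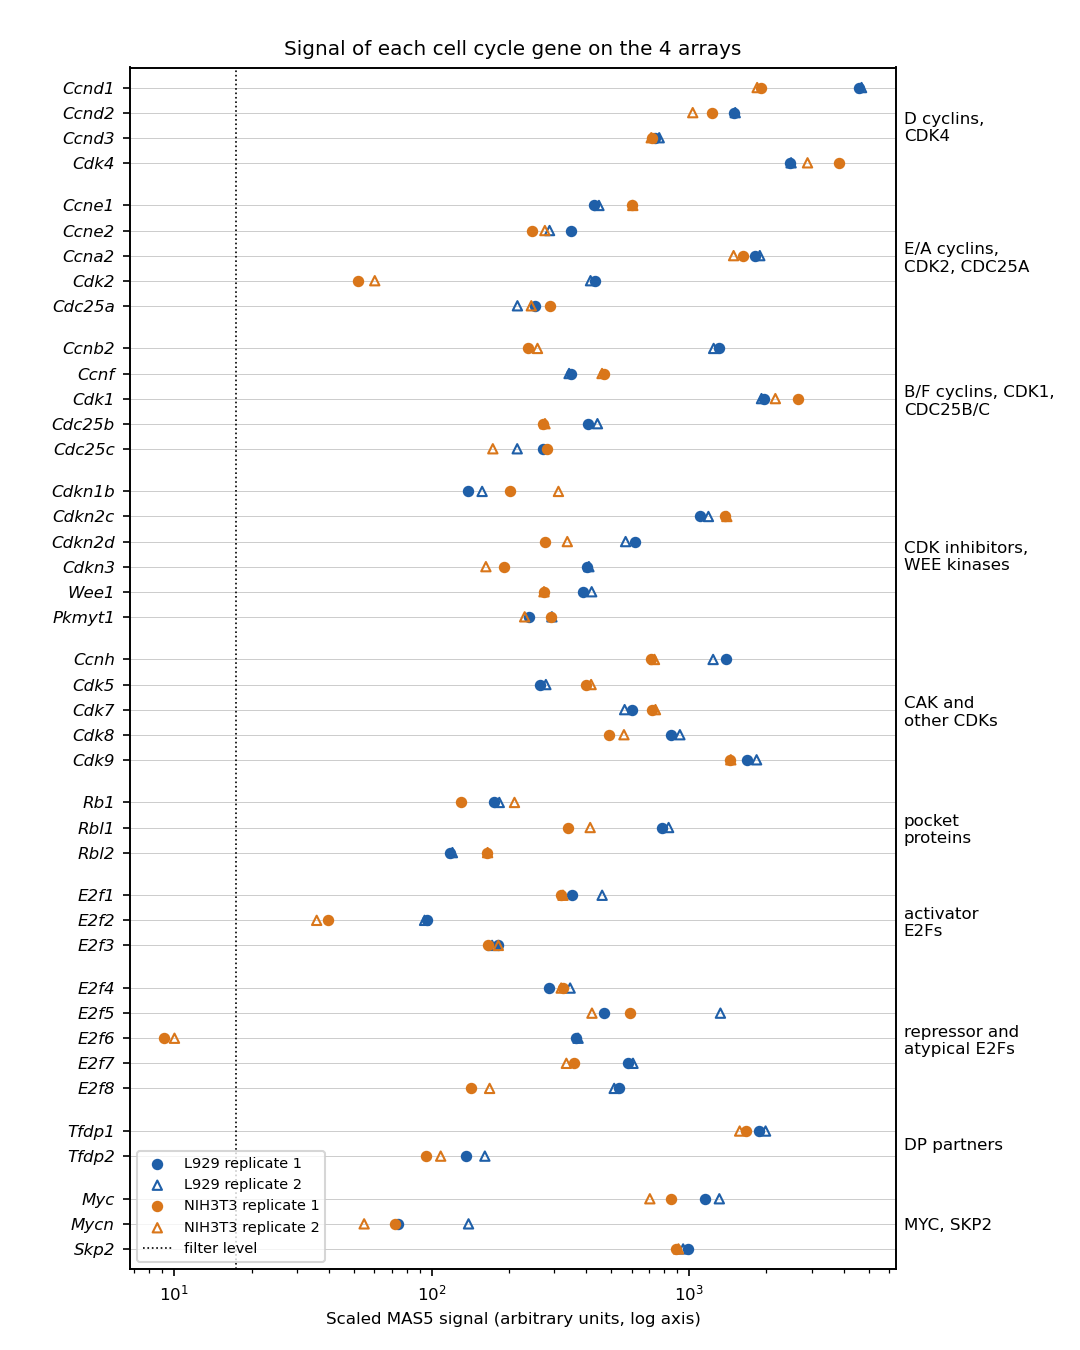
Scaled MAS5 signal of the 41 measured genes on each of the 4 arrays, in arbitrary units on a log axis, grouped by role, with L929 in blue, NIH3T3 in orange, replicate 1 as filled circles and replicate 2 as open triangles. The dotted line is the filter level of 17.3, and E2f6 in NIH3T3, at 9.16 and 10.0, is the only gene that lies below it.

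**Figure D2:**
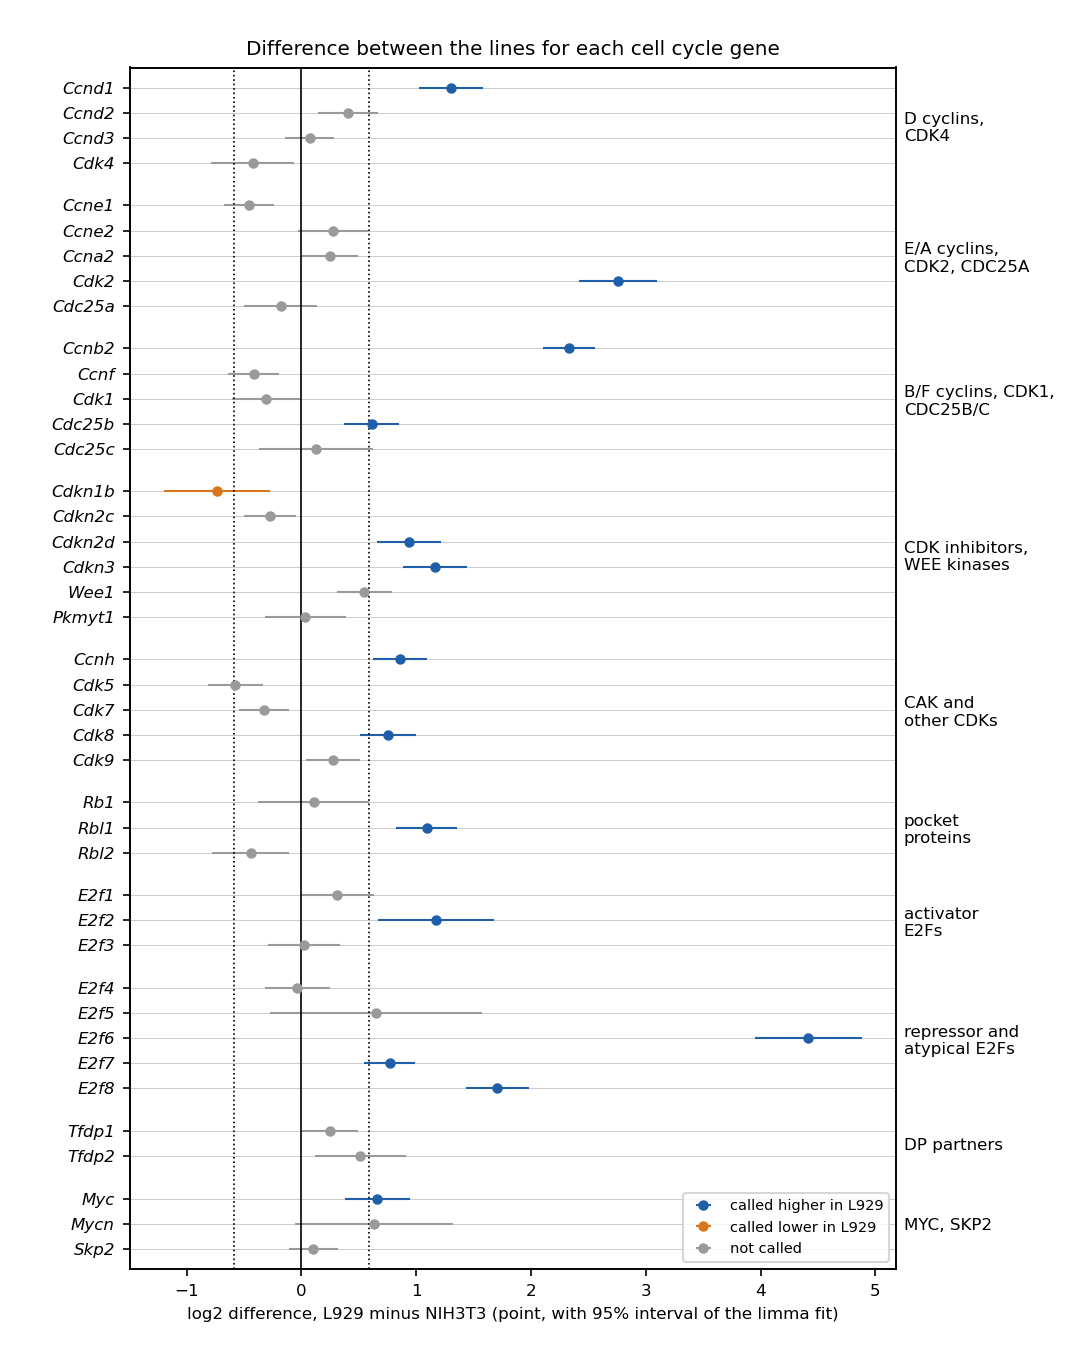
Log2 difference of L929 minus NIH3T3 for each of the 41 genes, with the 95% interval of the limma fit and dotted lines at a fold of 1.5. The 14 genes called higher in L929 are blue, Cdkn1b, called lower, is orange, and the 26 genes not called are grey.

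The promoters of the 3 genes that differed most are shown with those of Cdk1, the kinase partner of cyclin B that was not called, of E2f8, and of Cdkn1b, the gene called lower. Each is the 250 bases before the annotated start, read 5′ to 3′ on the strand of the gene from RefSeq (GRCm38.p6), with matches to 4 kinds of motif in capitals. The E2F core was searched as TTCCCGC, with the variants TTGGCGC and also TTCGCGC and finally TTGCCGC, the cell cycle homology region (CHR) as TTTGAA, the CCAAT box as CCAAT and the E-box as CACGTG, each on both strands.
E2f6: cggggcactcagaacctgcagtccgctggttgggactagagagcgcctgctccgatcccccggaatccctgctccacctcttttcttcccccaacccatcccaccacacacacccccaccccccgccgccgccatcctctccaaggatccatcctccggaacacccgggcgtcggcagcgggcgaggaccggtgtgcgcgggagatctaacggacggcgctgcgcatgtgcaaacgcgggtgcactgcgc
Cdk2: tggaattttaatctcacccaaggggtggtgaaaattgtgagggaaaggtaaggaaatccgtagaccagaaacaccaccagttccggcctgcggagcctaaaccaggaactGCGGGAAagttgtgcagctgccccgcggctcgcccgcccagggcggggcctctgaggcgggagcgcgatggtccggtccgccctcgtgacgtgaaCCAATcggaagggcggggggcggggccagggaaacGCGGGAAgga
Ccnb2: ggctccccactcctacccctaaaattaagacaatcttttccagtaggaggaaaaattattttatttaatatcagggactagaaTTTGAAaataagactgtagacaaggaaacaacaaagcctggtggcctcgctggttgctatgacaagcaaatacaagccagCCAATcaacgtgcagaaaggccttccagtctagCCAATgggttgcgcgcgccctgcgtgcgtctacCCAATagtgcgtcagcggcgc
Cdk1: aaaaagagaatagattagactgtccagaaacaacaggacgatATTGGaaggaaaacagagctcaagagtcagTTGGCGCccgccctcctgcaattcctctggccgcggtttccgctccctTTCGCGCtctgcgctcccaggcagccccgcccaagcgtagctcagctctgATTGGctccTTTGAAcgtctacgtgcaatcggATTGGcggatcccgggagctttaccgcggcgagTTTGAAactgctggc
E2f8: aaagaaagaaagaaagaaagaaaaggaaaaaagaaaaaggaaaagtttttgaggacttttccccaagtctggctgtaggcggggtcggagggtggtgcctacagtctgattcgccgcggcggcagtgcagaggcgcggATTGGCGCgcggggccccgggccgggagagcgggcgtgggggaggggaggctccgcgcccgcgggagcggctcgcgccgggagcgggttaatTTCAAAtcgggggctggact
Cdkn1b: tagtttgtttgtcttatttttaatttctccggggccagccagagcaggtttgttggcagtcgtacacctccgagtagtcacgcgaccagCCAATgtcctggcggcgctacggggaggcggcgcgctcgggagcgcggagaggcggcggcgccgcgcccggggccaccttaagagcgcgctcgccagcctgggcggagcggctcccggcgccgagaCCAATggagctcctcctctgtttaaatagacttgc

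The windows lie at chr12:16810715-16810964 on the plus strand for E2f6, chr10:128705052-128705301 on the minus strand for Cdk2, chr9:70421555-70421804 on the minus strand for Ccnb2, chr10:69352913-69353162 on the minus strand for Cdk1, chr7:48881597-48881846 on the minus strand for E2f8 and chr6:134920151-134920400 on the plus strand for Cdkn1b. The E2f6 window held 0 matches to any of the motifs. Cdk2 held 2 E2F cores and 1 CCAAT box, and Ccnb2 held 3 CCAAT boxes, 1 CHR and 0 E2F cores. Cdk1 also held 3 CCAAT boxes, with 2 E2F cores and 2 CHR matches. E2f8 held 1 match each to the E2F core, the CHR and the CCAAT box, of which the E2F core and the CCAAT box overlapped, and Cdkn1b held 2 CCAAT boxes.

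Over the set, 29 of the 42 genes had a promoter in the table. An E2F core stood in at least 1 listed window of 11 of these genes, a CHR in 10, a CCAAT box in 17 and an E-box in 5, beside 9.01%, 18.3%, 37.5% and 6.86% of the 27025 genes in the table. Of the 11 called higher in L929, 4 held an E2F core, 4 a CHR, 8 a CCAAT box and 1 an E-box. Of the 16 not called, 6 held an E2F core, 6 a CHR, 7 a CCAAT box and 4 an E-box. The difference between these groups was not tested. Such matches are letters in a window and do not show that a factor binds there. The genes not in the table were Ccna2, Ccnd1, Ccnd2, Ccne2, Ccnh, Cdc25c, Cdk5, E2f4, E2f5, Myc, Pkmyt1, Rb1 and Wee1.

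Among the G1 genes of the set, Ccnd1 was called higher in L929 and Cdk4 was not called. Ccnd1, the D-type cyclin most responsive to growth factors in fibroblasts, measured 4587 and 4688 in L929 and 1915 and 1842 in NIH3T3. Both L929 arrays lay above both NIH3T3 arrays, a 2.46-fold difference (log2 difference 1.30 ± 0.12 SE, limma adjusted p = 6.19e-05), and all 3 Ccnd1 probe sets were called, from 1.25 to 1.53. Ccnd2, its paralogue, measured 1493 and 1514 in L929 and 1235 and 1035 in NIH3T3, without overlap, but at 1.33-fold it lay under the fold threshold (adjusted p = 0.0186). Of the 7 Ccnd2 probe sets 1 was called higher, and they ranged from -0.07 to 0.80. The probe set at 0.80, which was not called, passed the filter through L929 alone. Ccnd3 measured 740.4 and 766.8 against 720.2 and 714, a difference of 0.07 with a 95% interval of -0.14 to 0.28.

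Cdk4, which encodes one of the kinases that D-type cyclins activate, leaned the other way. It measured 2472 and 2496 in L929 and 3848 and 2891 in NIH3T3, with NIH3T3 above on every array, and its log2 difference of -0.42 was not called (adjusted p = 0.0562). Of the 3 Cdk4 probe sets, which ranged from -0.63 to -0.42, 1 was called lower, and the gene was called without NIH3T3 replicate 2 (-0.63, adjusted p = 4.71e-04) and without scaling (-0.71, adjusted p = 0.038).

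In the G1/S and S group, the kinase gene Cdk2 stood apart from the cyclins that bind its product. Cdk2 measured 432.9 and 414.7 in L929 and 51.7 and 60.2 in NIH3T3 (log2 difference 2.76 ± 0.15 SE, 6.77-fold, limma adjusted p = 2.81e-06). The lines were far apart, and NIH3T3 lay above the filter level on both arrays. The call rests on a single probe set, since the other Cdk2 probe set was too dim in both lines to be tested. Ccne1, which encodes cyclin E1, measured 426.9 and 447.1 in L929 and 600.3 and 605.2 in NIH3T3, a difference of -0.46 that passed the adjusted p of 0.00434 but was only 1.37-fold. Its other probe set stood at -0.15.

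Ccne2, for cyclin E2, stood at 0.28 (95% interval -0.03 to 0.58) and Ccna2, for the S and G2 phase cyclin A2, at 0.25 (0.01 to 0.49), and neither passed the adjusted p. Cdc25a, the phosphatase that activates CDK2, measured 252.3 and 215.6 against 288.6 and 244.1, so the lines overlapped (-0.18, 95% interval -0.50 to 0.13). Thus 1 of the 5 tested genes of this group, or 20%, was called, beside 34.8% of all genes.

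Among the mitotic genes, the cyclin gene Ccnb2 was higher in L929 while Cdk1 was not. Ccnb2, for cyclin B2, measured 1304 and 1248 in L929 and 236.4 and 258 in NIH3T3 (log2 difference 2.33 ± 0.10 SE, limma adjusted p = 7.45e-07). The arrays of each line lay close together, and the difference was 5.03-fold on the only probe set of the gene. Cdk1, the kinase activated by B-type cyclins, measured 1951 and 1915 in L929 and 2644 and 2168 in NIH3T3. Its log2 difference of -0.31 leaned the opposite way, with a 95% interval of -0.61 to -0.01, and missed the adjusted p at 0.0849. The difference between the 2 genes' contrasts was not tested.

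Cdc25b, a phosphatase that activates CDK1 at mitotic entry, measured 404.5 and 441.2 against 271.5 and 275.9, a 1.53-fold difference just past the threshold (adjusted p = 0.00174). Its call was lost without L929 replicate 2 (log2 difference 0.55), with an offset of 32 (0.57) and without scaling (0.33). Cdc25c, the related phosphatase, overlapped between the lines (0.13, 95% interval -0.37 to 0.63). Ccnf, for cyclin F, the substrate receptor of a ubiquitin ligase that acts in G2, measured 347.4 and 342.3 against 466.4 and 459.7. It was 1.34-fold lower in L929, under the fold threshold although its adjusted p was 0.00784.

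The CDK inhibitors of this set, Cdkn1b, Cdkn2c and Cdkn2d, did not share a direction. Cdkn1a, given below with the other cell cycle genes, was called lower. Of the 6 tested genes in the group of CDK inhibitors, inhibitory kinases and Cdkn3, 2 were called higher and 1 lower. These were 33.3% and 16.7%, beside 17.3% and 17.6% of all genes. Cdkn1b, for the CIP/KIP inhibitor p27, measured 138.8 and 157.2 in L929 and 202.5 and 311.2 in NIH3T3, and was called lower (log2 difference -0.74 ± 0.20 SE, limma adjusted p = 0.0161). The NIH3T3 arrays were far apart, and the gene was no longer called without NIH3T3 replicate 2 (-0.44, adjusted p = 0.0836), with no mean-variance trend (adjusted p = 0.0671) and without scaling (-1.01, adjusted p = 0.109). Cdkn2d, for the INK4 inhibitor p19, measured 616.6 and 567.6 against 276.2 and 336.9 and was 1.91-fold higher in L929 (adjusted p = 3.74e-04). Cdkn2c, for the INK4 inhibitor p18, measured 1104 and 1191 against 1377 and 1404, 1.21-fold lower (adjusted p = 0.0493).

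Cdkn3, a phosphatase that removes the activating phosphate of CDK2, measured 402.8 and 408.7 in L929 and 191.4 and 162.6 in NIH3T3, 2.24-fold higher in L929 (adjusted p = 1.17e-04). Wee1, for the kinase that inhibits CDK1, measured 388.7 and 419 against 273.7 and 273.4, and at 1.46-fold it lay just under the threshold (adjusted p = 0.00301). It was called with median scaling (0.61) and without L929 replicate 1 (0.60). Pkmyt1, for the membrane-bound kinase with the same target, overlapped on its brightest probe set (0.03), while its dimmer probe set measured 34.0 and 62.7 against 108.1 and 125 and was called lower (-1.19, adjusted p = 0.00903 over all probe sets).

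In the group of CDK-activating and transcriptional kinases, Ccnh and Cdk8 were higher in L929. Ccnh, for the cyclin that forms the CDK-activating kinase with CDK7, measured 1398 and 1242 against 711.1 and 735, 1.81-fold higher (adjusted p = 2.29e-04). Of its 3 tested probe sets 2 were called higher, and the third, at 99.4 and 73.6 against 101.4 and 104.2, stood at -0.24. Its partner Cdk7 measured 599.6 and 562.7 against 719 and 741.4, 1.25-fold lower and under the fold threshold (adjusted p = 0.0208), with all 4 tested probe sets below 0. Cdk8, the kinase of the Mediator complex, measured 855.7 and 922.6 against 487.9 and 559.3, 1.69-fold higher (adjusted p = 5.72e-04).

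Cdk9, the elongation kinase, stood at 0.28 with a 95% interval of 0.04 to 0.51 and did not pass the adjusted p. Cdk5, an atypical CDK known from neurons, measured 262.9 and 278.1 against 396.5 and 416.9. Its brightest probe set was 1.49-fold lower (adjusted p = 0.00235), just under the threshold, and was called without L929 replicate 2 (-0.61), without NIH3T3 replicate 1 (-0.61) and with an offset of 1 (-0.59). Its 2 dim probe sets stood at -0.16 and 0.73. The one at 0.73, with 23.7 and 21.4 in L929 against 6.59 and 15.2 in NIH3T3, passed the filter through L929 alone.

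Of the pocket proteins, which bind E2Fs, Rbl1 was higher in L929. Rbl1, for p107, measured 784.1 and 834.1 in L929 and 340.4 and 413.4 in NIH3T3, 2.13-fold higher (log2 difference 1.09 ± 0.12 SE, limma adjusted p = 1.26e-04), and both tested probe sets were called. Rbl2, for its paralogue p130, measured 117.8 and 120.5 against 164.3 and 165.1, 1.36-fold lower and under the fold threshold (adjusted p = 0.0375). Rb1, for the retinoblastoma protein, measured 174.8 and 183.3 against 130.6 and 210, so the NIH3T3 arrays enclosed the L929 arrays (0.11, 95% interval -0.38 to 0.59).

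Of the activator E2Fs, E2f2 was called. It measured 96.2 and 93.9 in L929 and 39.7 and 35.8 in NIH3T3, dim on this array but without overlap, 2.26-fold higher (adjusted p = 0.00269). Its second probe set, at 62.5 and 61.6 against 7.15 and 28.2, was called at 1.58. That probe set passed the filter through L929 alone, with 1 of 2 NIH3T3 arrays above the level, so it adds no support to the first. E2f1, an activator that is itself an E2F target, measured 350.6 and 460.1 against 319.4 and 324.2, with a log2 difference of 0.31 and an adjusted p of 0.0959. E2f3 measured 180.8 and 171.9 against 165.3 and 181.7, and its 95% interval ran from -0.29 to 0.34.

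The repressor and atypical E2Fs held the largest difference of the set, and 3 of the 5 were called higher in L929. This was 60% of the group, beside 17.3% of all genes, and 1 of the 3, E2f6, entered the test through L929 alone. E2f6, whose product represses through Polycomb-type complexes without binding pocket proteins, measured 365.4 and 371 on the L929 arrays. On the NIH3T3 arrays it measured 9.16 and 10.0, below the filter level, so it was at least 21.3-fold higher in L929 (limma adjusted p = 1.2e-06). Its second probe set was dim even in L929, at 26.3 and 23.5 against 3.29 and 0.951, and like the first it passed the filter through L929 alone. Its bound of at least 1.44-fold is under the fold threshold, so it adds no support to the first. A low array signal is not a measured absence of the transcript.

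E2f8, an atypical E2F that represses without a DP partner, measured 536.1 and 512.5 in L929 and 142.7 and 168.1 in NIH3T3, 3.27-fold higher (log2 difference 1.71 ± 0.12 SE, limma adjusted p = 1.27e-05), with both probe sets called. E2f7, its paralogue, measured 582.1 and 606.4 against 357.6 and 334.1, 1.70-fold higher (adjusted p = 3.46e-04). E2f4, a repressor that works with p107 and p130, measured 285 and 345.5 against 324.6 and 319, with a 95% interval of -0.32 to 0.25.

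E2f5, the other repressor of that kind, had probe sets that disagreed. Its brightest one measured 466 and 1326 in L929 and 592 and 420 in NIH3T3, so the L929 replicates differed more than the lines did, and it was not called (0.65, adjusted p = 0.219). It was called higher without L929 replicate 1 (1.40, adjusted p = 4.2e-05). The other 2 probe sets were both called lower in L929, at 240.9 and 200.8 against 308.5 and 522 (-0.85, adjusted p = 0.0165 over all probe sets) and at 208.8 and 185 against 365 and 354.6 (-0.85, adjusted p = 7.49e-04). With the median over probe sets the gene was called lower (-0.81, adjusted p = 0.00116), so its direction depends on the probe set.

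The DP proteins, which pair with E2Fs to bind DNA, were not called. Tfdp1 stood at 0.25 (95% interval 0.00 to 0.49, adjusted p = 0.0883). Tfdp2 measured 136.3 and 161.1 against 95.1 and 108.5, a 1.43-fold difference (adjusted p = 0.0396), with its 4 probe sets from -0.18 to 0.62. It was called without NIH3T3 replicate 2 (0.60), without L929 replicate 1 (0.63) and with quantile normalization (0.61). Its probe set at 0.56 passed the filter through L929 alone.

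Of the MYC factors, Myc was modestly higher in L929. It measured 1154 and 1313 in L929 and 855.1 and 705.1 in NIH3T3, a 1.58-fold difference (adjusted p = 0.00276) that fell under the fold threshold without L929 replicate 2 (log2 difference 0.57) or NIH3T3 replicate 2 (0.52) and was also lost without scaling (0.37). Mycn, its paralogue, had probe sets of opposite sign. Its brightest one measured 74.0 and 139.2 against 72.0 and 54.7 (0.63, not called), while another measured 4.16 and 17.7 in L929 and 151.3 and 157.3 in NIH3T3 and was called lower (-3.20, adjusted p = 1.99e-04 over all probe sets). On that probe set 1 of 2 L929 arrays lay above the filter level, so it entered the test through NIH3T3 alone. The third Mycn probe set, at 4.11 and 24.6 in L929 and 31.2 and 38.9 in NIH3T3, stood at -1.11 and was not called. It too entered the test through NIH3T3 alone. The brightest one was called higher with median scaling (0.69) and without L929 replicate 1 (1.05). With the median over probe sets the gene was called lower (-1.83, adjusted p = 0.00932), so its direction depends on the probe set. Skp2, for the ubiquitin ligase subunit that targets p27, measured 988.5 and 949.8 against 890.1 and 910.9, with a difference of 0.10 and a 95% interval of -0.11 to 0.32, and limma called 0 of its 6 probe sets, of which 2 had an unadjusted p under 0.05, both higher in L929.

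Probe sets of a gene therefore mattered for several of these genes. Of the 86 tested probe sets of the 41 genes 22 were called higher and 6 lower, beside 14.9% and 16.7% of all 27438 probe sets tested. Among the 22, both E2f6 probe sets and the dimmer E2f2 one passed the filter through L929 alone. Among the 6, the Mycn one passed it through NIH3T3 alone. For 26 genes several probe sets were tested, and for 10 of these the probe sets differed in sign, but 0 of the genes had probe sets called in opposite directions, which was found for 65 of 5997 such genes overall. For Cdk5 and Mycn the sign differed only because of probe sets that passed the filter through L929 alone (Cdk5) or NIH3T3 alone (Mycn). The 6 lower calls came from Cdk4, Cdkn1b, Pkmyt1, Mycn and, with 2 probe sets, E2f5. Only Cdkn1b had its lower call on its brightest probe set.

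**Figure D3:**
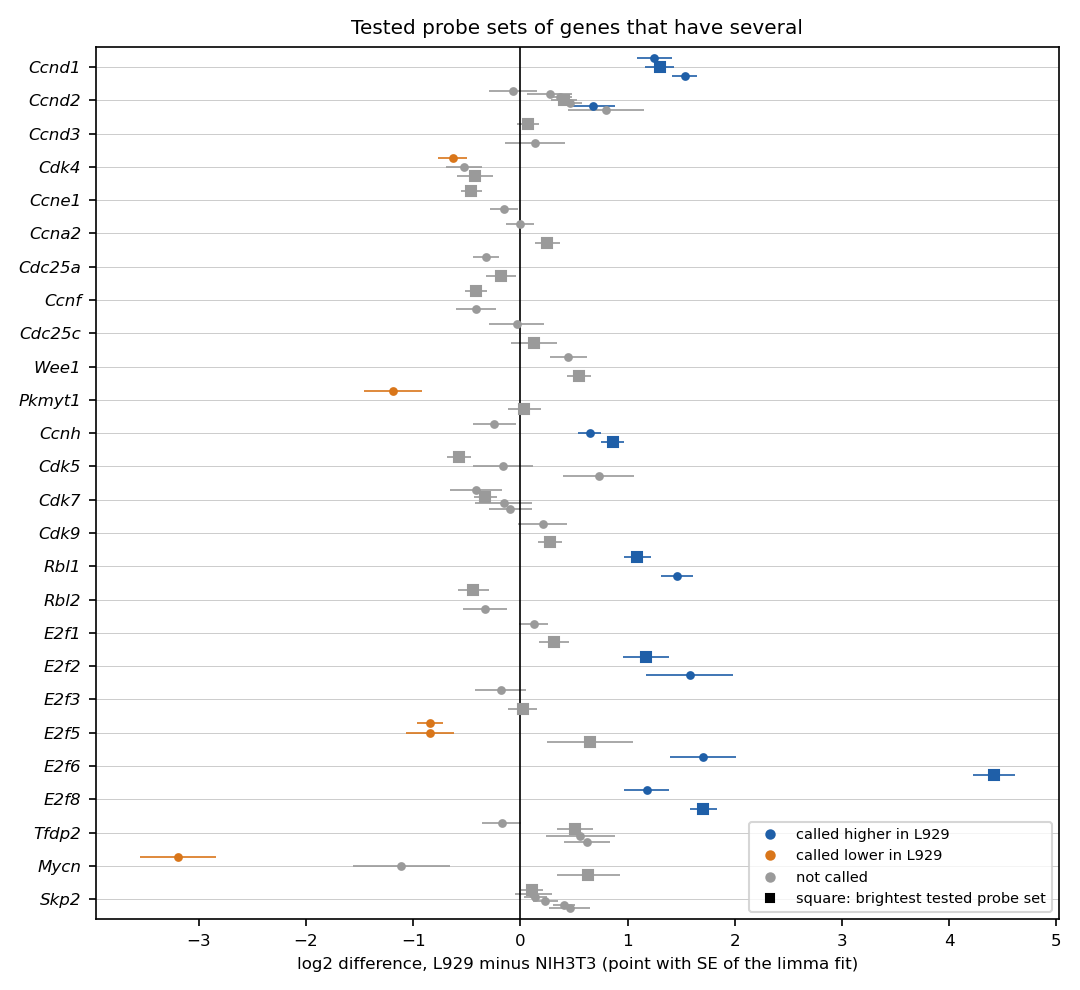
Log2 difference of L929 minus NIH3T3 with its SE for every tested probe set of the 26 genes that have several, blue where called higher in L929, orange where called lower and grey where not called, with the brightest probe set as a square. The 3 Ccnd1 probe sets lie together between 1.25 and 1.53, whereas those of E2f5 and Mycn fall on both sides of 0.

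The genes next to the 3 most different ones did not share their direction throughout. Of the 3 nearest tested genes on each side of E2f6 on chromosome 12, 1 was called higher, 1 lower and 4 were not called, and Greb1 and Pqlc3, the closest on either side, stood at 0.30 and 0.52. Beside Cdk2 on chromosome 10, 2 were higher, 2 lower and 2 not called, with Rab5b at -0.63 and Dgka at -0.72 as the closest. Beside Ccnb2 on chromosome 9, 1 was higher, 1 lower and 4 not called, with Myo1e at -1.34 and Rnf111 at -0.16 as the closest.

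Other genes of the cell cycle, in lists chosen by name, gave the setting for these values. Of 28 other tested cyclins, CDKs and inhibitors 7 were higher in L929 and 8 lower, with a median log2 difference of -0.03. These were 25% and 28.6% of the list, beside 17.3% and 17.6% of all genes. The higher ones were led by Cdk14, a membrane-associated CDK, at 3.58-fold, Cdk6, the second kinase of D-type cyclins, at 3.14-fold (1136 and 1497 against 392.8 and 426.9, adjusted p = 3.06e-05), and Cdk18 at 2.90-fold. The lower ones were led by Ccng1, a p53 target, at 4.04-fold, Cdk13, a transcriptional kinase, at 3.04-fold, and Cdkn1a, for the CIP/KIP inhibitor p21, at 2.84-fold (202.2 and 272.2 against 633.8 and 730.2, adjusted p = 8.61e-05). Without scaling 3 of this list were higher and 4 lower, beside 794 and 1745 of all 12583 genes tested in that setting. With the median over probe sets 7 were higher and 4 lower, where Cdk13 turned to 0.02.

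Genes that E2F and MuvB complexes are known to control were called in 26.1% (S phase list) and 21.7% (G2/M list) of tested genes, below the 34.8% of all genes. All of these calls were higher in L929. The shares called higher were thus 26.1% and 21.7%, above the 17.3% of all genes, and the shares called lower were 0%, beside 17.6%. Of 23 tested E2F target genes of S phase limma called 6 higher and 0 lower, with a median of 0.30, and at an unadjusted p under 0.05 there were 13 and 1. Without scaling 2 were higher and 0 lower, with a median of 0.02, beside 794 and 1745 of all 12583 genes tested in that setting. Uhrf1, a factor for maintaining DNA methylation, was 2.54-fold higher, Gmnn, the replication licensing inhibitor geminin, 2.06-fold and Rrm2, a ribonucleotide reductase subunit, 2.01-fold. Gmnn lost its call without scaling (log2 difference 0.76). Of 23 G2/M genes limma called 5 higher and 0 lower, with a median of 0.21, or 9 and 1 at an unadjusted p under 0.05. Without scaling 1 was higher and 0 lower, beside the same 794 and 1745 of all genes, and the median turned to -0.07, against -0.26 for all genes. The higher ones included Pttg1, or securin, at 2.07-fold, the proliferation marker Mki67 at 1.85-fold, with 2304 and 2322 against 1413 and 1094, and Espl1, or separase, at 1.69-fold. The call of Pttg1 was lost with the median over probe sets and without _x_at and _s_at probe sets, and that of Espl1 when NIH3T3 replicate 2 was left out and without scaling. Mki67 lost its call without scaling (0.61). Of 8 genes of the DREAM and MuvB complex 1 was higher, Mybl2, the mitotic gene activator B-MYB, at 2.08-fold, or 12.5% of the list, and 0 lower, with 2 and 1 at an unadjusted p under 0.05. Without scaling Mybl2 lost its call and 1 other gene was lower.

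Of 10 genes of the MYC network, which encode partners and antagonists of MYC, 1 was higher and 2 lower. These were 10% and 20% of the list, beside 17.3% and 17.6% of all genes. Mxd3, a MAX partner, was 3.27-fold higher, Mnt, a repressor, 1.57-fold lower and Mlxip 1.54-fold lower. Both lower calls were lost when either L929 replicate 1 or NIH3T3 replicate 1 was left out, without scaling, with quantile normalization and with an offset of 32. Mnt lost its call also with no filter, with no trend and without NIH3T3 replicate 2, and kept it under 8 of 16 alternatives. Mlxip lost its call also with median scaling. Of 23 ubiquitin ligase genes of the cell cycle 2 were higher and 4 lower, with a median of -0.02. The shares were 8.7% and 17.4%, beside the same 17.3% and 17.6%. Fbxo5, for the anaphase-promoting complex inhibitor EMI1, was 2.25-fold higher and the complex subunit Anapc13 1.55-fold higher. Both lost the call without scaling, and Anapc13 lost it also with no trend and without L929 replicate 2 or NIH3T3 replicate 2. The subunits Cdc26 and Cdc27 were 2.36-fold and 1.97-fold lower, and Cul1, the scaffold of the SCF ligase in which SKP2 works, was 1.65-fold lower.

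**Figure D4:**
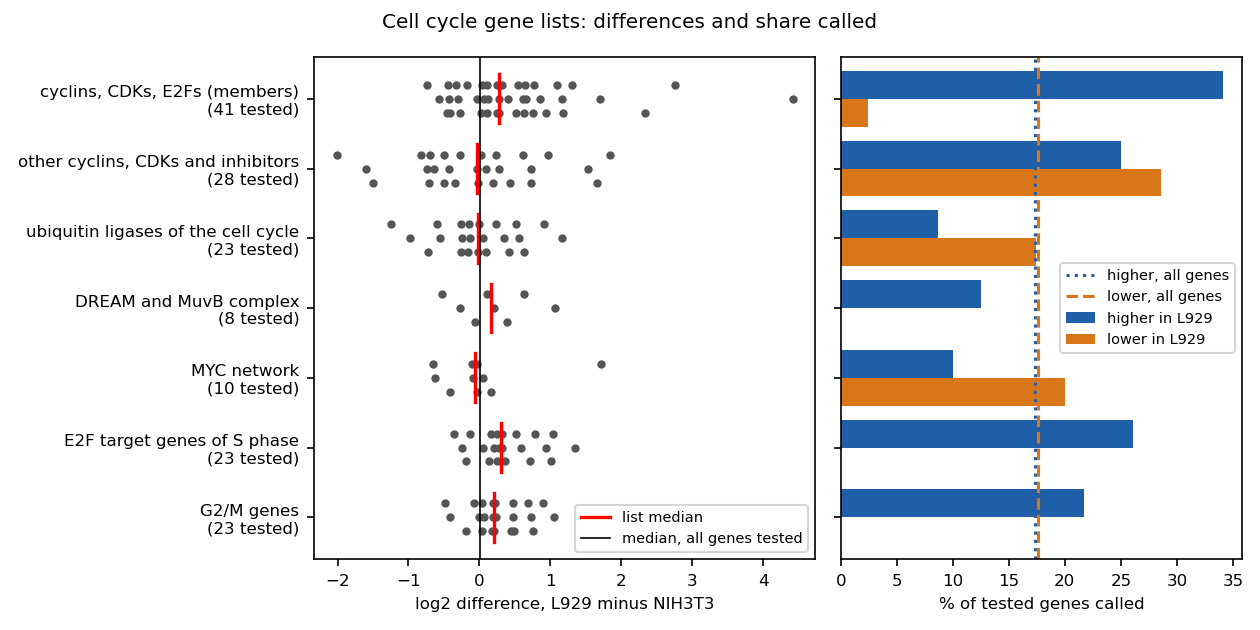
Left, log2 differences of the tested genes of each cell cycle list, with the list median in red and the median of all genes tested in black. Right, the percent of each list called higher (blue) or lower (orange) in L929, with lines at the 17.3% and 17.6% of all genes. The 41 cyclins, CDKs, inhibitors and E2F factors show 34.1% higher and 2.44% lower, and limma called 0 genes lower in the S phase and G2/M lists, where 1 gene in each had an unadjusted p under 0.05 in that direction.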

How the data were processed

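RNA of 2 L929 and 2 NIH3T3 samples was hybridised to Mouse Genome 430 2.0 arrays. The deposited table holds 1 linear intensity per probe set, a MAS5 signal per the submitters' processing notes. Not given in the sources used here are the MAS5 version, scaling target and build, and no detection calls were used. Of 45037 non-control probe sets 34945 had 1 gene symbol in the platform annotation, 932 several and 9160 none. Each array was scaled to a common mean that trims 2% of probe sets at each end, and the 25th percentile of scaled signals (8.01) was added before log2. Fold changes on this scale understate dim genes. A probe set entered the test where a line had both arrays above the 40th percentile (17.3), a percentile and not a detection limit. Each gene is represented by its brightest tested probe set on average. L929 was compared with NIH3T3 using lmFit and eBayes with a mean-variance trend (limma 3.58.1, R 4.3.3), after a test of the code on simulated data. For a line under 17.3 on each of its arrays, "at least" gives the geometric mean of the brighter line over 17.3. Precision is limited by the number of arrays. The genes, gene lists and tests were chosen with earlier results of these data known. Genes named are all members and, of each other list, up to 3 called genes per direction with the largest difference, and the neighbours and the promoters shown were chosen after values were seen. Promoters came from a RefSeq table of GRCm38.p6.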

Additional observations from a re-analysis of the deposited data

How the results depend on the processing

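The counts and median of the 41 genes, the counts over all genes and the difference of each of the 41 genes were recomputed under 16 alternatives, and of the 15 called genes 5 kept their call in all of them. Among these 5, E2f6 had entered the test through L929 alone. The same alternatives for the 21 called genes named from other lists, and for the probe-set calls except the median over probe sets, were added after the data were seen. The calls of neighbouring genes and the motif counts had none. Of the 21 genes 10 kept their call throughout, and Cdk13 changed sign with the median over probe sets (0.017). The 22 higher probe sets of the 41 genes were 10 without scaling and 19 to 25 when 1 array was left out, and the 6 lower ones were 4 to 7 under every setting run. The count of higher genes, 14, was 5 without scaling and 13 to 16 under the other settings that keep all arrays, and 12 to 18 when 1 array was left out, the extremes being without L929 replicate 2 and without L929 replicate 1. The count of lower genes, 1, was 2 with an offset of 1, 0 with no trend in limma (6 at an unadjusted p under 0.05) and 3 with the median over probe sets, and it was 1 to 2 when 1 array was left out. Over all genes, 2187 were higher and 2228 lower, and without scaling 794 and 1745. The median difference of the 41 genes, 0.28, was -0.0038 without scaling, 0.34 with median scaling, and 0.22 to 0.33 when 1 array was left out. Among genes not called with the settings of the report, the sign changed without scaling for Ccnd3 (-0.21), Ccne2 (-0.0038), Ccna2 (-0.036), Cdc25c (-0.15), Pkmyt1 (-0.24), Cdk9 (-0.011), Rb1 (-0.17), E2f3 (-0.25), Tfdp1 (-0.036) and Skp2 (-0.18). With the median over probe sets it changed for Pkmyt1 (-0.58), E2f3 (-0.080), E2f5 (-0.81) and Mycn (-1.83), without _x_at and _s_at probe sets for Cdc25c (-0.034), and with median scaling for E2f4 (0.026). Leaving out 1 array gave ranges that cross 0 for Cdc25c (-0.21 to 0.46), Pkmyt1 (-0.13 to 0.20), Rb1 (-0.22 to 0.43), E2f3 (-0.042 to 0.089), E2f4 (-0.17 to 0.10) and E2f5 (-0.096 to 1.40). The labels number replicates alike in both lines, but same-numbered arrays did not deviate together (r = 0.014 across probe sets), and with the replicate block 14 genes were higher and 1 lower, as without it, and 2172 and 2233 of all genes. Only the unscaled values have a known construction behind their shift, and the cause of the other changes was not tested.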
